A study of Mus musculus with 8 samples.

Results

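All pools of knee articular cartilage from mice given an antibody against GDF8 (GDF8 Ab) were compared with all pools from mice given a placebo antibody (PLA Ab), across both hind limbs. The comparison takes the 4 libraries labelled GDF8 and the 4 labelled PLA, which are all 8 libraries of the series, and keeps the limb as a separate term, so that it measures the difference between antibodies that the 2 limbs share. The groups are anti-GDF8 control and placebo control (the limb that was not injured), and anti-GDF8 ACLT and placebo ACLT (the limb with transection of the anterior cruciate ligament, ACLT), with 2 pools each, named A and B. Every mouse had ACLT in 1 limb and received 10 mg/kg of either antibody by injection, so the control limbs also come from operated animals, and cartilage was collected on day 7 from mice 4 to 5 months old. Each pool joins the tissue of 4 limbs. By this design the 4 pools of an antibody would be 2 limbs of the same mice and not 4 independent sets of animals. No label says which pools of the 2 limbs share mice. The number of mice per antibody is 4 in the labels and 8 in the study's methods. With 4 mice, pools A and B of a limb could not be separate animals, and the spread between them would be technical. According to the study's methods, males and females were both used in every experiment. The strain of the pooled mice is not given in the sources used here.

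GDF8, also called myostatin (gene Mstn), is a secreted factor of the TGF-β family made mainly by skeletal muscle, where it limits fiber growth. The mature dimer binds the type II receptors Acvr2b and Acvr2a, which recruit the type I receptors Acvr1b or Tgfbr1, and the signal reaches the nucleus through SMAD2 and SMAD3. Follistatin and related proteins hold the ligand inactive, and so does the antibody given here. Articular cartilage is made by chondrocytes, but the layer is thin in mice and lies on bone with marrow beneath, in which blood cells, including B-cell precursors, are formed.

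The deposited values are reads of a gene scaled to the same total in each library (CPM), and the depths estimated from them were 16.4 to 28.1 M reads a library. The pools held cartilage together with other tissue. Genes of the cartilage matrix and of chondrocytes were detected in every pool, with Acan, which encodes aggrecan, at 28.5 to 88.9 CPM in anti-GDF8 pools and 70.0 to 88.0 CPM in placebo pools. The type II collagen gene Col2a1 had 168 to 656 CPM in anti-GDF8 pools and 229 to 1654 CPM in placebo pools. In all, these 22 markers took 0.136% to 0.254% of reads with anti-GDF8 and 0.246% to 0.416% with placebo. Erythroid markers, mainly globins, took 8.22% to 13.6% with anti-GDF8 and 7.21% to 8.93% with placebo, and neutrophil markers 3.63% to 4.68% with anti-GDF8 and 2.80% to 4.49% with placebo. Since whole tissue was sequenced, fewer cells of a type and less RNA per cell cannot be told apart in any value below.

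One gene passed the test for a difference between antibodies common to both limbs. It was Vpreb1, which fell with anti-GDF8, among 17401 genes tested with limma (Benjamini-Hochberg adjusted p under 0.05, 4 pools per antibody), or 0.00575% of them. No gene passed in the higher direction, with 0 calls also from voom weights on estimated reads. At an unadjusted p under 0.05, 902 genes were higher (5.18%) and 980 lower (5.63%) with anti-GDF8. The p-values measure the spread between these pools, and the fit takes all 8 pools as independent, although pools of the 2 limbs may share mice. With the limbs of a letter averaged to 2 pools per antibody, no gene passed (limma, smallest adjusted p = 0.181). Fold changes are on a scale of log2 of reads plus 1 at the median depth, which understates the change of low genes. Values were higher for 48.4% and lower for 51.6% of genes, with a median log2 fold change over all genes of -0.01, and 25.3% of genes were higher and 23.4% lower in both limbs. In 951 genes (5.47%) both anti-GDF8 pools lay above both placebo pools in each limb, and in 711 genes (4.09%) both lay below in each limb, 9.55% together, while 7.72% were separated in opposite directions in the 2 limbs. Genes with the same direction in each limb are called separated in both limbs hereafter. Apart from Vpreb1, 9 genes had an adjusted p under 0.1, namely Arntl, Prss23, Myh11, Tnfrsf12a, Acta2, Niban3, Rag1 and Igll1 with lower values and Dbp with higher values. Without placebo control pool B 65 genes passed with lower values and 1 with higher values, and without 5 of the other pools, left out in turn, none passed. The 10 genes fall mostly into 3 groups, B-cell precursor genes, clock genes and smooth muscle genes.

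Vpreb1 encodes part of the surrogate light chain, the stand-in that B-cell precursors in the marrow pair with a new heavy chain before they have made a light chain. The gene (ENSMUSG00000059305) lies on chromosome 16 from 16686267 to 16688708 in the coordinates of the deposited table. In control limbs it had 0.852 and 0.959 CPM in the anti-GDF8 pools A and B, against 7.85 and 4.95 CPM in the placebo pools. In ACLT limbs it had 1.45 and 1.41 CPM with anti-GDF8, against 13.3 and 10.7 CPM with placebo. All 4 anti-GDF8 pools were thus below all 4 placebo pools, with 14 to 40 reads a library against 139 to 275. The log2 fold change was -2.87 (SE 0.25, limma adjusted p = 0.0102), with -2.72 in control limbs and -3.02 in ACLT limbs. The log2 fold change stayed between -3.03 and -2.65 in all 26 alternative analyses. The call was lost when anti-GDF8 control pool A (adjusted p = 0.0609), placebo control pool A (0.135), anti-GDF8 ACLT pool A (0.0759), placebo ACLT pool A (0.119) or placebo ACLT pool B (0.124) was left out. It was also lost when the 2 limbs were averaged to 2 pools per antibody (0.181), without the limb term (0.134), and with the mean of erythroid markers (0.693) or of Y-linked genes (0.134) as a covariate. Every pool held both Xist and Y-linked RNA, and the 4 Y-linked genes tested (Ddx3y, Eif2s3y, Kdm5d and Uty) were lower in both anti-GDF8 pools than in both placebo pools of ACLT limbs. In control limbs Kdm5d had 12.4 and 6.91 CPM with anti-GDF8 and 9.94 and 7.13 CPM with placebo. In ACLT limbs it had 3.33 and 3.16 CPM with anti-GDF8 and 9.91 and 11.3 CPM with placebo. None of the 4, nor Xist (log2 fold change 0.39), passed. Both anti-GDF8 ACLT pools were thus below both anti-GDF8 control pools for Kdm5d. Whether the pools of the 2 limbs hold the same mice was not tested. The part that the mix of males and females in a pool had in the values above was not tested either.

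Several other genes used by B-cell precursors also had lower values with anti-GDF8. Igll1 encodes the second part of the surrogate light chain and lies beside Vpreb1 on the chromosome. It had 0.912 and 1.62 CPM with anti-GDF8 and 14.8 and 7.05 CPM with placebo in control limbs, and 3.83 and 2.31 CPM with anti-GDF8 and 13.6 and 9.80 CPM with placebo in ACLT limbs (log2 fold change -2.48, SE 0.36, limma adjusted p = 0.0964). Vpreb3, a chaperone of the same receptor complex, had 2.74 and 1.92 CPM with anti-GDF8 and 18.5 and 8.22 CPM with placebo in control limbs. In ACLT limbs Vpreb3 had 5.06 and 1.81 CPM with anti-GDF8 and 17.2 and 12.5 CPM with placebo (log2 fold change -2.33, adjusted p = 0.153). The antibody groups did not overlap for either gene, and neither passed the test. Rag1 and its neighbor Rag2 encode the recombinase that joins antigen receptor gene segments. Rag1 was covered by 5 and 4 reads in the anti-GDF8 control pools and 2 and 1 reads in the anti-GDF8 ACLT pools, against 88 and 41 reads in placebo control and 38 and 26 reads in placebo ACLT. Its log2 fold change was -3.41 (SE 0.49, adjusted p = 0.0914). Rag2 summed to 20 reads over the anti-GDF8 pools and 203 reads over the placebo pools (log2 fold change -3.21, adjusted p = 0.366). The depth therefore limits how exactly the size of these 2 differences is known. Dntt, which encodes the enzyme that adds bases at the joints of the heavy chain gene, differed far less. It had 7.78 and 6.97 CPM with anti-GDF8 and 11.98 and 8.36 CPM with placebo in control limbs, and 8.79 and 5.67 CPM with anti-GDF8 and 9.37 and 11.8 CPM with placebo in ACLT limbs (log2 fold change -0.51, adjusted p = 0.434).

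Genes expressed more widely in the B lineage also had lower values without passing, and genes of antibody-secreting cells differed over both limbs by less than their errors. For Blnk, an adaptor of B-cell receptor signaling, the log2 fold change was -0.92 (adjusted p = 0.211), for the receptor chain gene Cd79a -0.84 (0.384) and for the mature B-cell marker Ms4a1, which encodes CD20, -0.83 (0.384). Cd79a had 66.1 and 39.3 CPM with anti-GDF8 and 95.8 and 83.8 CPM with placebo in control limbs, and 83.8 and 31.2 CPM with anti-GDF8 and 89.0 and 96.9 CPM with placebo in ACLT limbs. For Cd79a, as for Ms4a1, anti-GDF8 ACLT pool A lay close to the placebo pools and pool B far below them. For Niban3, a gene enriched in B cells, it was -2.26 (adjusted p = 0.0914), and for Cd72, an inhibitory receptor of B cells, -1.22 (adjusted p = 0.188). By contrast, the immunoglobulin light chain constant gene Igkc had 2084 and 1527 CPM with anti-GDF8 and 2655 and 2158 CPM with placebo in control limbs, and 2283 and 1702 CPM with anti-GDF8 and 1685 and 1201 CPM with placebo in ACLT limbs. Its log2 fold change was 0.02 (SE 0.24), and that of Jchain, which links secreted IgM and IgA, was 0.06 (SE 0.25). Of the 20 genes on the list of B cells and plasma cells, 17 had lower values, 13 of them at an unadjusted p under 0.05, and 12 were separated in both limbs, with a median log2 fold change of -0.78. Over all genes 51.6% had lower values, 5.63% were lower at that p and 4.09% were separated downward, with a median of -0.01. With the Y-linked covariate 8 of the 20 had such a p. Of the list only Vpreb1 passed. Among 169 immunoglobulin variable genes, 99 had higher and 70 lower values (median 0.08), none passed, and 10 were higher and 2 lower at an unadjusted p under 0.05. The shares over all genes were 48.4% with higher values, and 5.18% higher and 5.63% lower at that p. Blnk, Rag2, Cd79a and Ms4a1 were chosen after their values were seen.

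**Figure D1:**
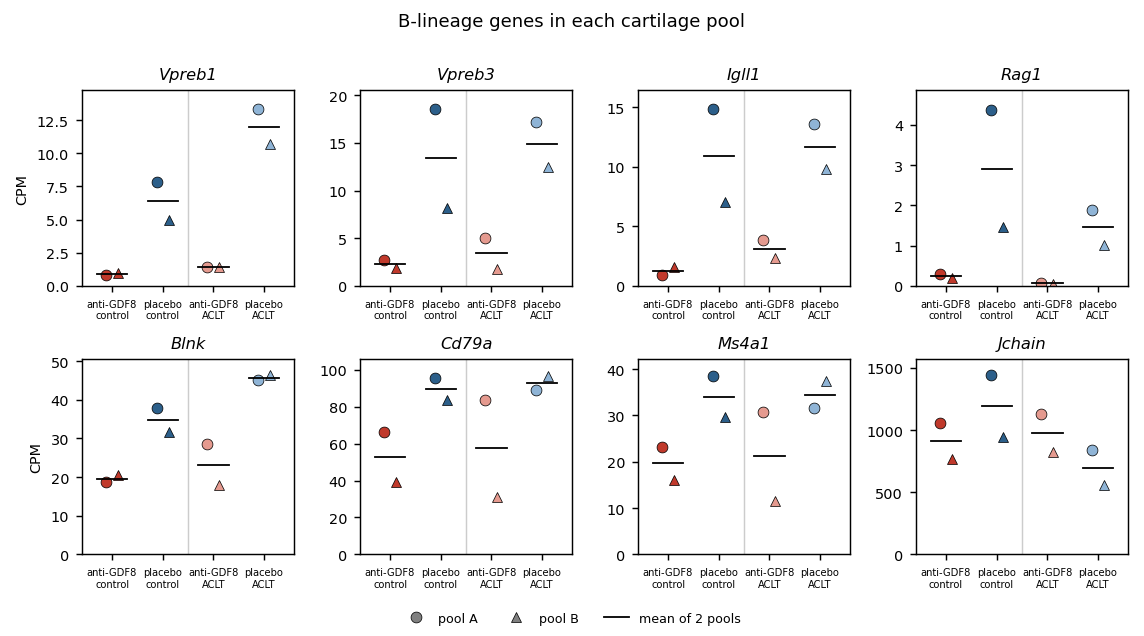
CPM of 8 B-lineage genes in each pool (points, circles for pool A and triangles for pool B), with the mean of the 2 pools of a group as a line, on axes that start at 0. For Vpreb1, Vpreb3, Igll1 and Rag1 all anti-GDF8 pools lie below all placebo pools, while for Jchain the 2 antibodies overlap within each limb.

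The second group was the circadian clock. In this loop the activators Arntl (BMAL1) and Clock or Npas2 switch on the period genes Per1, Per2 and Per3 and output genes such as Dbp through E-box sequences. The receptor Rora activates and Nr1d1 represses Arntl through ROR elements, so that Arntl and Dbp peak at opposite times of the day in most mouse tissues. Arntl had 6.93 and 8.43 CPM in anti-GDF8 control pools, against 26.4 and 19.7 CPM in placebo control, and 6.76 and 10.3 CPM in anti-GDF8 ACLT, against 29.7 and 24.9 CPM in placebo ACLT. The log2 fold change was -1.63 (SE 0.18, limma adjusted p = 0.0566), with -1.57 in control and -1.69 in ACLT limbs. Npas2 had 0.547 and 1.56 CPM with anti-GDF8 and 5.07 and 3.10 CPM with placebo in control limbs, and 2.64 and 2.61 CPM with anti-GDF8 and 17.8 and 9.49 CPM with placebo in ACLT limbs (log2 fold change -2.16, adjusted p = 0.199). Both activators were lower in every anti-GDF8 pool than in either placebo pool of the same limb.

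The period and output genes had values in the other direction. Dbp had 20.2 and 25.0 CPM in anti-GDF8 control, against 8.44 and 8.93 CPM in placebo control, and 25.1 and 29.0 CPM in anti-GDF8 ACLT, against 10.4 and 13.6 CPM in placebo ACLT. The log2 fold change was 1.27 (SE 0.15, adjusted p = 0.0604). Per3 had 27.9 and 33.5 CPM with anti-GDF8 and 16.3 and 12.8 CPM with placebo in control limbs, and 24.7 and 27.7 CPM with anti-GDF8 and 19.6 and 16.1 CPM with placebo in ACLT limbs (log2 fold change 0.82, adjusted p = 0.366). The log2 fold changes of Per2, Per1 and Ciart, a repressor of the loop, were 0.70 (adjusted p = 0.379), 0.72 (0.384) and 0.51 (0.504), and that of Rora was -0.70 (0.384). All of these genes were separated in both limbs. Nr1d1 did not follow Dbp, with 44.3 and 62.6 CPM with anti-GDF8 and 45.4 and 68.4 CPM with placebo in control limbs, and 58.0 and 76.9 CPM with anti-GDF8 and 50.2 and 63.2 CPM with placebo in ACLT limbs (log2 fold change 0.08, SE 0.18). The repressor Bhlhe40 had a log2 fold change of 0.02 (SE 0.12). Of the 19 clock genes, 5 were separated upward and 3 downward in both limbs, against 5.47% and 4.09% of all genes, and none passed. Arntl passed in 8 and Dbp in 6 of the 26 alternative analyses, and their log2 fold changes ranged from -1.74 to -1.27 and from 1.19 to 1.37. The hour of day at which the limbs were collected is not given in the sources used here. Per2, Per1, Ciart and Rora were chosen after their values were seen.

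**Figure D2:**
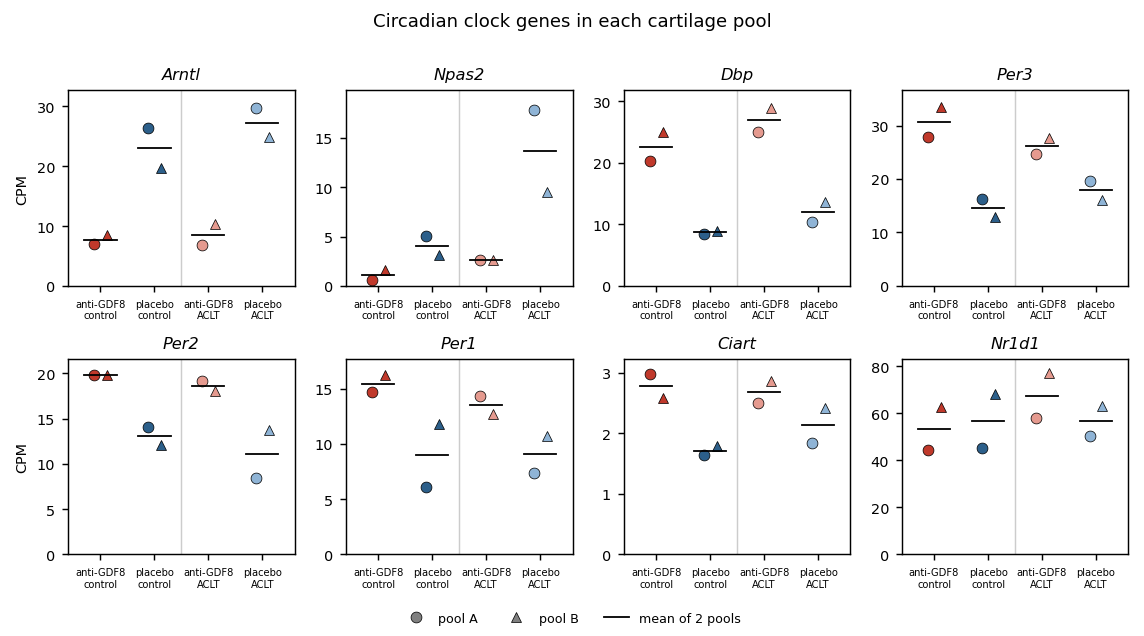
CPM of 8 circadian clock genes in each pool (circles for pool A, triangles for pool B), with the mean of the 2 pools as a line, on axes that start at 0. Arntl and Npas2 are lower and Dbp, Per3, Per2, Per1 and Ciart higher in both anti-GDF8 pools of each limb, and Nr1d1 overlaps.

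The loop is known to work through E-boxes, ROR elements and D-boxes, and 3 promoters are shown because each holds 1 of these kinds of element. The sequences are from RefSeq on GRCm38.p6, from 250 bases before to 50 bases after the gene's start, and 16 of the 19 clock genes were matched by symbol. The first is 1 of 2 listed promoters of Arntl (chr7:113207261-113207560, plus strand), with the ROR element TAGGTCA in capitals 30 bases after the start. The second is Per3 (chr4:151044616-151044915, minus strand), with 2 matches to the D-box TTANGTAA, the sequence that Dbp binds, in capitals. The third is Ciart (chr3:95882179-95882478, minus strand), with 3 E-boxes CACGTG in capitals.
Arntl: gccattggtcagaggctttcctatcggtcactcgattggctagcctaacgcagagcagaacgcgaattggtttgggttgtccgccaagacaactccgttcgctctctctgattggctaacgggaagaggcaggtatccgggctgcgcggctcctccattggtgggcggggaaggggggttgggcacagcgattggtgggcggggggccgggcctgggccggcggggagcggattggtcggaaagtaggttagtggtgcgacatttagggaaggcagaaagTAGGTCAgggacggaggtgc
Per3: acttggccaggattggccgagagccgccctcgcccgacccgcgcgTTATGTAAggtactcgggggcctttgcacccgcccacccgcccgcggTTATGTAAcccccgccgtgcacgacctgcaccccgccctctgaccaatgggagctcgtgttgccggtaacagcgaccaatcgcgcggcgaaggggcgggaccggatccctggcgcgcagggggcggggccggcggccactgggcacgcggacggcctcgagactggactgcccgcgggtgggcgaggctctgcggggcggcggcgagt
Ciart: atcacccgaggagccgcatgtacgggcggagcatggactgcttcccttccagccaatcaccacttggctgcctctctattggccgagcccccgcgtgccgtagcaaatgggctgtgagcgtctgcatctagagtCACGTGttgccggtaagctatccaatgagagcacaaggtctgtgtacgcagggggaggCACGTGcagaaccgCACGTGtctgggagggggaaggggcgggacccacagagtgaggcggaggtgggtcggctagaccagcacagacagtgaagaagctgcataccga
Both strands were searched. The 16 genes have 21 listed promoters. An E-box was found in 6 of these (of Bhlhe41, Ciart, Cry1, Per1 and Tef), a ROR element in 2 (Arntl and Nfil3) and a D-box in 1 (Per3), against 7.15%, 2.61% and 2.32% of all 32851 promoters. The window of Dbp held none of the 3. A match is a description of the letters and was not tested as a binding site.

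Genes of cell division were higher throughout with anti-GDF8, by a small amount in each gene. Of the 39 genes on the list of the cell cycle and mitosis, all 39 had higher values in both limbs and all 39 had an unadjusted p under 0.05, against 25.3% and 5.18% of all genes, and none passed the adjusted test. The median log2 fold change was 0.43, with 0.30 in control and 0.56 in ACLT limbs. Of the 39 genes 28 were separated in both limbs, against 5.47% of all genes separated upward. All 39 were read in the same 8 pools, so they are not independent observations. Without anti-GDF8 ACLT pool A 22 of them, and without placebo ACLT pool A 23, had an unadjusted p under 0.05. Aurkb, a mitotic kinase, had 172 and 146 CPM in anti-GDF8 control, against 121 and 125 CPM in placebo control, and 157 and 140.2 CPM in anti-GDF8 ACLT, against 85.1 and 102 CPM in placebo ACLT (log2 fold change 0.52, SE 0.12, limma adjusted p = 0.366). Ccne1, the cyclin of entry into DNA replication, was 0.63 higher on the log2 scale (adjusted p = 0.379), the replication licensing gene Mcm7 0.47 (0.379), the cell-cycle repressor E2f8 0.55 (0.379), the nucleotide-making enzyme Rrm2 0.56 (0.384) and the proliferation marker Mki67 0.45 (0.384). Together the list took 0.678% and 0.585% of reads in the anti-GDF8 control pools A and B, against 0.531% and 0.501% in placebo control, and 0.662% and 0.528% in anti-GDF8 ACLT, against 0.343% and 0.443% in placebo ACLT. Among higher genes that were separated and averaged 5 CPM or more, those outside the list with the smallest unadjusted p included E2f7 (log2 fold change 0.58), the DNA glycosylase gene Neil3 (0.60), the mitotic entry kinase gene Pkmyt1 (0.43) and Arhgef39, an activator of small GTPases (0.49). The others were the long noncoding RNA Gm42047 (0.83), BC055324 (0.71), Trappc10 of a vesicle transport complex (0.59) and Mocs1 of molybdenum cofactor synthesis (0.46), with adjusted p-values from 0.221 to 0.366 over these 8 genes.

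Many mitotic genes share the cell cycle homology region TTTGAA (CHR) near their start. For 31 genes of the list RefSeq gave 32 promoters, of which 16 had it on either strand, among them those of Plk1, Mki67 and Top2a, against 17.9% of all promoters, and 26 had a CCAAT box, against 37.4%. The promoter of Plk1, a kinase that drives mitosis, is shown as an example (chr7:122159185-122159484, plus strand, GRCm38.p6), with the CHR in capitals. Plk1 was chosen after its values were seen, which were 144 and 121 CPM in anti-GDF8 control, 109 and 123 CPM in placebo control, 136 and 108 CPM in anti-GDF8 ACLT and 71.3 and 90.5 CPM in placebo ACLT (log2 fold change 0.39, adjusted p = 0.389), so that the antibodies overlapped in control limbs.
Plk1: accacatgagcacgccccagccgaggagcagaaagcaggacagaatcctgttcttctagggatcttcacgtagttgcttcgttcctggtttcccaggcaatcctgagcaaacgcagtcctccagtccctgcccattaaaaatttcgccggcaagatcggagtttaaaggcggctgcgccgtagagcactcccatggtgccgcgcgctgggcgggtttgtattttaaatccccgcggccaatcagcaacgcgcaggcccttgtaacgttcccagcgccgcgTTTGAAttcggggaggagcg

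Markers of red cell and neutrophil precursors of the marrow also had higher values. All 16 tested erythroid genes had higher values with anti-GDF8, 11 of them at an unadjusted p under 0.05, and 5 were separated in both limbs (median log2 fold change 0.53, 0.29 in control and 0.82 in ACLT limbs). Without placebo ACLT pool A 4, without anti-GDF8 ACLT pool A 5, and without anti-GDF8 control pool A 6, of the erythroid genes had an unadjusted p under 0.05. Over all genes 48.4% had higher values, 5.18% were higher at that p and 5.47% were separated upward. The Rh-associated glycoprotein gene Rhag had 279 and 191 CPM with anti-GDF8 and 170.1 and 169.9 CPM with placebo in control limbs, and 277 and 176 CPM with anti-GDF8 and 77.9 and 141 CPM with placebo in ACLT limbs (log2 fold change 0.76, SE 0.24, adjusted p = 0.384). The log2 fold change was 0.61 for the carbonic anhydrase gene Car1 (adjusted p = 0.384), and for the adult globin gene Hbb-bs 0.39 (SE 0.33, adjusted p = 0.712). The near-identical globin copies share reads, so their separate values are uncertain. Of 19 neutrophil genes 18 had higher values, 7 at an unadjusted p under 0.05, and 8 were separated in both limbs (median 0.22), against the same shares of all genes. The granule genes of early neutrophil precursors had log2 fold changes of 0.55 for the elastase gene Elane, 0.50 for Prtn3 and 0.58 for the myeloperoxidase gene Mpo, each at an adjusted p of 0.384. With the mean of the erythroid markers as a covariate, an alternative chosen after the data were seen, 38 of the 39 cell-cycle genes still had higher values but none had an unadjusted p under 0.05, and their median was 0.13. The part of the erythroid markers in the cell-cycle values was not tested further. Under the same covariate all 20 B-lineage genes had lower values, 13 of them at an unadjusted p under 0.05, with a median of -1.05. It left a median of -0.07 for the smooth muscle list described below, with 5 genes higher and 8 lower. At an unadjusted p under 0.05 it left 1 of 7 fibrillar collagens (median -0.55) and 1 of 26 collagen processing enzymes (median -0.26). Of 24 SMAD2 and SMAD3 targets it left 2 (median -0.36). Without the covariate 7, 14 and 8 genes of these lists had such a p. The fall was not particular to these lists. Over all tested genes 257 were higher and 271 lower at that p with the covariate, against 902 and 980 without it.

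**Figure D3:**
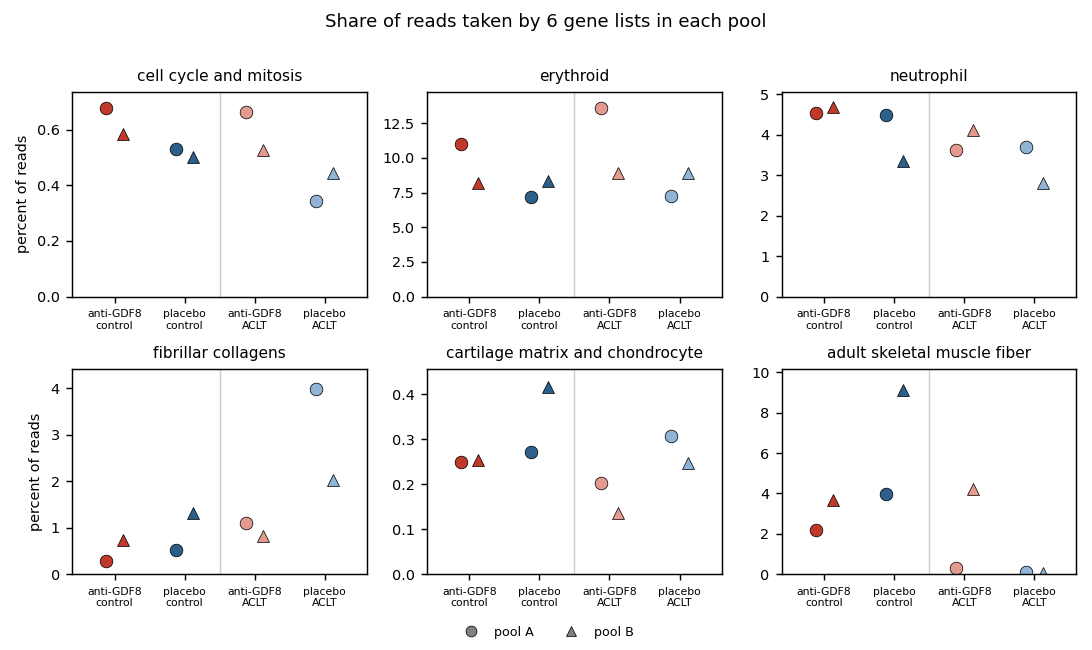
Share of reads, in percent, taken by the summed CPM of 6 gene lists in each pool (circles for pool A, triangles for pool B), on axes that start at 0. The cell-cycle share is higher in both anti-GDF8 pools than in both placebo pools of each limb, the erythroid and neutrophil shares overlap in at least 1 limb, and the muscle share is low in both placebo ACLT pools and in anti-GDF8 ACLT pool A.

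The third group was contractile genes of smooth muscle cells, the cells that wrap arterioles, whose actin gene is also used by myofibroblasts. Acta2, the smooth muscle actin gene, had 25.4 and 32.5 CPM in anti-GDF8 control, against 96.3 and 64.7 CPM in placebo control, and 27.7 and 37.1 CPM in anti-GDF8 ACLT, against 64.1 and 76.5 CPM in placebo ACLT. Its log2 fold change was -1.29 (SE 0.17, limma adjusted p = 0.0656), and the 4 anti-GDF8 pools all lay below the 4 placebo pools. Myh11, the smooth muscle myosin heavy chain gene, had 15.3 and 13.6 CPM with anti-GDF8 and 40.3 and 33.1 CPM with placebo in control limbs, and 7.41 and 8.08 CPM with anti-GDF8 and 14.2 and 16.3 CPM with placebo in ACLT limbs (log2 fold change -1.15, adjusted p = 0.0656). Cnn1 and Tagln, 2 further contractile genes, had log2 fold changes of -1.62 and -0.93 over both limbs, with -2.45 and -1.39 in control limbs and -0.78 and -0.47 in ACLT limbs. Neither was separated in ACLT limbs. Des, the desmin gene, had the highest mean of the list and is also a skeletal muscle gene. It had 310.4 and 531 CPM with anti-GDF8 and 383 and 1152 CPM with placebo in control limbs, and 47.9 and 630.3 CPM with anti-GDF8 and 16.9 and 15.1 CPM with placebo in ACLT limbs (log2 fold change 1.37, SE 0.95). Myl9, with the second highest mean, had a log2 fold change of -0.16 (SE 0.15). Of 13 smooth muscle and pericyte markers, 11 had lower values and 6 of these an unadjusted p under 0.05 (median -0.56), against 51.6% and 5.63% of all genes. Prss23, a secreted serine protease gene, had 20.01 and 23.8 CPM with anti-GDF8 and 40.4 and 37.6 CPM with placebo in control limbs, and 46.7 and 48.2 CPM with anti-GDF8 and 94.0 and 114 CPM with placebo in ACLT limbs (log2 fold change -0.98, SE 0.12, adjusted p = 0.0637). For Tnfrsf12a, the receptor of the cytokine TWEAK, it was -1.05 (SE 0.14, adjusted p = 0.0656), with -1.08 in control and -1.02 in ACLT limbs. Both genes were separated in both limbs.

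Genes of the connective tissue matrix were lower as well, but with much of the difference in ACLT limbs. All 7 fibrillar collagen genes had lower values in both limbs and an unadjusted p under 0.05 (median log2 fold change -1.14). The median was -0.76 in control and -1.30 in ACLT limbs, and 2 of the 7 were separated in both limbs. Over all genes 23.4% were lower in both limbs, 5.63% were lower at that p and 4.09% were separated downward. Without placebo ACLT pool A 3 of the 7 had such a p (median -0.84), without anti-GDF8 control pool A or placebo control pool B 4, and without the limb term 1. Col5a2 had 46.6 and 89.0 CPM in anti-GDF8 control, against 117 and 109 CPM in placebo control, and 250.5 and 172 CPM in anti-GDF8 ACLT, against 669.9 and 491 CPM in placebo ACLT (log2 fold change -1.14, SE 0.23, adjusted p = 0.366). Col1a1, the main collagen gene of bone and tendon, had 1301 and 3616 CPM with anti-GDF8 and 2138 and 7284 CPM with placebo in control limbs, and 4119 and 2744 CPM with anti-GDF8 and 17912 and 6874 CPM with placebo in ACLT limbs. Its groups overlapped in control limbs, and the log2 fold change of -1.29 had an adjusted p of 0.415. Col1a2 had -1.18 (adjusted p = 0.403). Among 26 collagen processing enzymes all had lower values, 14 at an unadjusted p under 0.05 and 4 separated in both limbs (median -0.53, with -0.07 in control and -0.98 in ACLT limbs), against 5.63% and 4.09% of all genes. Without the limb term 1 of the 26 had such a p, and 352 of all tested genes were lower at it, against 980 with the term. Those with the smallest p were the prolyl hydroxylase complex gene P3h4 (-0.85, adjusted p = 0.211), P4ha2 (-0.74, 0.366) and the crosslinking enzyme gene Lox (-0.72, 0.379). For 8 of the 26 the interaction of antibody and limb had an unadjusted p under 0.05, against 10.3% of all genes. Mmp2, the gelatinase of connective tissue cells, had 29.7 and 67.4 CPM with anti-GDF8 and 76.9 and 73.7 CPM with placebo in control limbs, and 217 and 196 CPM with anti-GDF8 and 589.7 and 467 CPM with placebo in ACLT limbs (log2 fold change -1.05, SE 0.24, adjusted p = 0.366), and was separated in both limbs. The aggrecanase gene Adamts4 had a log2 fold change of -0.21 in control and -2.08 in ACLT limbs (limma interaction, adjusted p = 0.454). Of 21 cartilage and chondrocyte genes, 18 had lower values, 5 of them at an unadjusted p under 0.05 (median -0.59). The shares over all genes were 51.6% and 5.63%. Col11a1 (-1.49) and Comp (-0.56) were lower and Sox6 (0.59) higher, all without passing. The log2 fold change of Sox6 ranged from 0.04 to 0.71 over the 26 alternative analyses, and which cells its reads came from was not tested. The count of 5 was 1 without placebo ACLT pool A, 3 without anti-GDF8 control pool B, anti-GDF8 ACLT pool B or placebo ACLT pool B, and 11 without placebo control pool A, and the median was -0.30 without anti-GDF8 ACLT pool B.

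**Figure D4:**
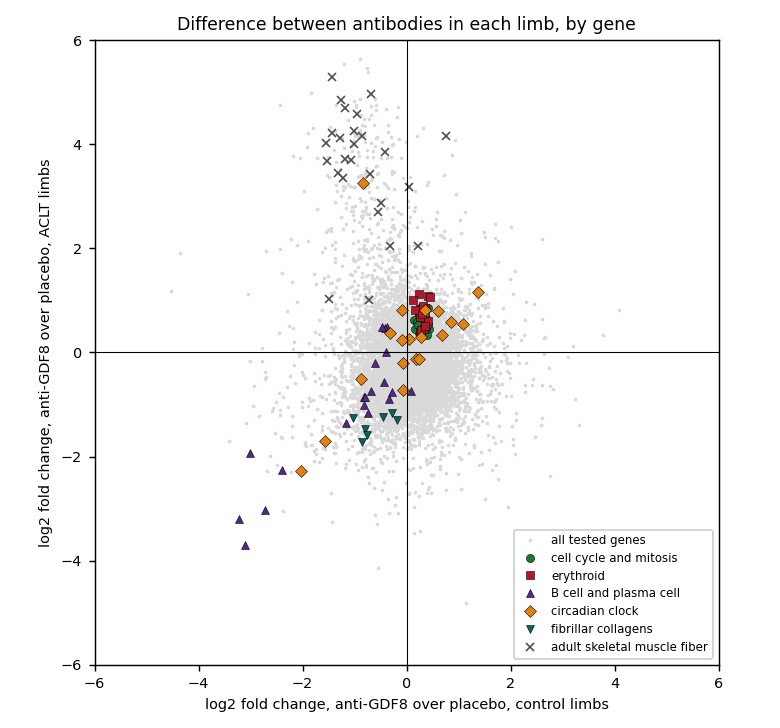
Log2 fold change of anti-GDF8 over placebo in control limbs (horizontal axis) and in ACLT limbs (vertical axis) for the 17401 tested genes (gray) and 6 lists (colored). B-lineage and fibrillar collagen genes lie mostly at lower left and cell-cycle and erythroid genes at upper right, while 23 of the 26 muscle fiber genes lie at upper left, lower in control and higher in ACLT limbs.

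The GDF8 system itself showed no difference that passed. Mstn, the gene of GDF8, had 3.89 and 7.22 CPM in anti-GDF8 control, against 17.2 and 38.1 CPM in placebo control, and 0.470 and 8.03 CPM in anti-GDF8 ACLT, against 1.30 and 1.48 CPM in placebo ACLT. The anti-GDF8 pools were lower in control limbs and on both sides of the placebo pools in ACLT limbs (log2 fold change -0.87, SE 0.84, adjusted p = 0.749). Its highest value was in placebo control pool B, which also had the highest share of muscle RNA. The log2 fold change of Mstn ranged from -2.17 to -0.32 over the 26 alternative analyses, among them the muscle covariate. The part of muscle RNA in these values was not tested further. The log2 fold change was -0.53 for the related ligand gene Gdf11 (adjusted p = 0.542) and 0.10 for the activin gene Inhba (0.923). Of the receptors, Acvr2b had 6.20 and 7.62 CPM with anti-GDF8 and 5.42 and 4.80 CPM with placebo in control limbs, and 4.99 and 6.38 CPM with anti-GDF8 and 6.73 and 4.12 CPM with placebo in ACLT limbs (log2 fold change 0.26, SE 0.22). Acvr2a had 0.11 (SE 0.22), the type I receptor gene Acvr1b 0.49 (SE 0.24) and Tgfbr1 -0.16 (SE 0.15). None of the 7 tested receptor genes had an unadjusted p under 0.05. Of 16 antagonists and maturation factors 12 had lower values, 5 of them at an unadjusted p under 0.05, a count that was 3 without anti-GDF8 ACLT pool A and 8 without anti-GDF8 control pool B. These included the BMP antagonist gene Chrd (-1.03, limma adjusted p = 0.379) and the proprotein convertase gene Pcsk5 (-0.80, 0.379). They also included the latent complex protein gene Ltbp3 (-0.54, 0.384) and Dcn, the small proteoglycan decorin (-0.75, 0.391). The median of the 16 genes was -0.51, with -0.06 in control and -0.92 in ACLT limbs, and 6 of them had higher values in control limbs. For Ltbp3 the log2 fold change was -0.15 in control and -0.93 in ACLT limbs. With Chrd, Nog and Grem1 the list holds antagonists of BMP ligands too, so it is not limited to those of GDF8. The follistatin gene Fst had -0.29 (SE 0.19). Of 24 target genes of SMAD2 and SMAD3, 21 had lower values and 8 an unadjusted p under 0.05 (median -0.43, with -0.05 in control and -0.66 in ACLT limbs), with Acta2, Ltbp2, Itga11 and Tagln at the smallest p. Over all genes 51.6% had lower values and 5.63% were lower at that p, shares that apply to the antagonist counts as well. Acta2 and Tagln were also described above with the smooth muscle genes, so this list is not separate from those results. The feedback target Smad7 is among the 16 targets that did not reach an unadjusted p of 0.05. The count of 8 was 5 without anti-GDF8 ACLT pool B or placebo ACLT pool A.

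Skeletal muscle genes differed between antibodies in opposite directions in the 2 limbs and are not a common effect. The 26 markers of adult muscle fibers took 2.17% and 3.66% of reads in anti-GDF8 control, against 3.96% and 9.13% in placebo control, and 0.312% and 4.20% in anti-GDF8 ACLT, against 0.123% and 0.0745% in placebo ACLT. Their median log2 fold change was -1.01 in control and 3.78 in ACLT limbs, so the value of 1.38 over both limbs describes neither. That value was 0.19 without anti-GDF8 ACLT pool B and -0.41 with the Y-linked covariate. None of the 26 had an unadjusted p under 0.05 for the common effect, 21 had one for the interaction of antibody and limb, and no gene of the table passed the interaction test (limma, 0 of 17401, smallest adjusted p = 0.432, 1799 or 10.3% at an unadjusted p under 0.05, and 0 with voom weights). Without anti-GDF8 ACLT pool A, 307 genes passed the interaction test. Myh1, a fast myosin heavy chain gene, had 473 and 948 CPM with anti-GDF8 and 587 and 267 CPM with placebo in control limbs, and 14.4 and 1342 CPM with anti-GDF8 and 8.97 and 6.62 CPM with placebo in ACLT limbs. Pool B of the anti-GDF8 ACLT group thus carried most of the muscle RNA of that group. With the mean of the muscle markers as a covariate, Vpreb1, Arntl and Acta2 passed, all lower, and all 39 cell-cycle genes kept an unadjusted p under 0.05.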

How the data were processed

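RNA from mouse knee articular cartilage was sequenced in 8 libraries, each a pool of 4 limbs, in 4 groups of 2 pools. The deposited table holds CPM for 20539 genes, made by the authors. Partek, DESeq2 and the aligner STAR (version 2.7.3a) appear in the submitters' processing notes, as do mm39 and mm10, and the step each belongs to is not given in the sources used here. Depths were not read from a label but estimated from the CPM step of 1 read, at 16.4 to 28.1 M reads, and multiplying by them gave whole reads (within 0.02) for 69.7% to 75.4% of values under 200 reads, so that counts were not recovered and the count tests first planned were not run. All value columns were used. The files' coordinates were printed as deposited and not combined with those of RefSeq, whose GRCm38.p6 promoters were matched by symbol.

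The filter kept 17401 genes that averaged 10 reads or more at the median depth of 20.1 M reads (0.498 CPM). Log2 of these reads plus 1 was fitted with limma 3.58.1 (R 4.3.3, intensity trend) on limb and antibody, and p-values were adjusted over all tested genes by Benjamini-Hochberg with a threshold of 0.05. The interaction and the values within limbs came from a fit of 4 group means. The procedure was tested on simulated data. Figures were drawn with matplotlib 3.10.9. Alternatives changed the model, pseudocount, filter, scaling, weights, covariates and replicate block, and left out each library.

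The genes named were every called gene, in each direction the 10 separated genes averaging 5 CPM or more that had the smallest unadjusted p, genes the study names, from each list described up to 4 members by p and 2 by mean, and the tested members of the GDF8 system. Some genes that the rule covers are not reported here. The members and lists were chosen with earlier results of these data known. Values of the authors' own comparisons were not used.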

Additional observations from a re-analysis of the deposited data

Results flagged for a closer look

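In 5 of the genes named, both anti-GDF8 pools lay on one side of both placebo pools in control limbs and on the other side in ACLT limbs. Such opposite separation was seen in 7.72% of all tested genes, and the interaction of antibody and limb passed for none of them (limma). The muscle ubiquitin ligase gene Trim63 had 50.1 and 103 CPM with anti-GDF8 and 149 and 445 CPM with placebo in control limbs, and 34.6 and 100.1 CPM with anti-GDF8 and 1.89 and 1.71 CPM with placebo in ACLT limbs. The difference between its log2 fold changes in ACLT and control limbs was 6.83 (limma adjusted p = 0.432). For Fbxo32, the other ligase of muscle atrophy, this difference was 3.02 (adjusted p = 0.449), and for Casq1, a calcium store protein of fast muscle, 5.55 (adjusted p = 0.449). These 3 genes went with the muscle share of the pools given above, whose part in them was not tested. Igkc, the light chain constant gene, had a difference of 0.90 (adjusted p = 0.479), being lower with anti-GDF8 in control limbs and higher in ACLT limbs. The Wnt effector gene Tcf7l2 had a difference of -0.74 (adjusted p = 0.473), being higher with anti-GDF8 in control limbs and lower in ACLT limbs.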

How the results depend on the processing

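The count of genes passing with lower values was 1 and that with higher values 0. Lower calls numbered 0 without the limb term and with the erythroid or the Y-linked covariate, both chosen after the data were seen, 2 with no filter (Vpreb1 and Arntl), and 3 with the muscle covariate (Vpreb1, Arntl and Acta2). With trimmed-mean scaling and with quantile normalization they numbered 3 (Vpreb1, Arntl and Prss23) and with robust estimates 7 (these with Myh11, Tnfrsf12a, Acta2 and Igll1), each with 1 higher call, Dbp. Leaving out 1 library gave 0 to 65 lower and 0 to 1 higher calls, the most without placebo control pool B, and 0 to 307 interaction calls, the most without anti-GDF8 ACLT pool A. Genes separated downward in both limbs numbered 1114 with trimmed-mean scaling, against 711, and those separated upward 770, against 951. The larger of the 2 counts was thus the downward one with this scaling and the upward one without it.

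The pool letters were not shown to pair the samples, since the correlation of their differences was 0.296 between the limbs with anti-GDF8 but 0.0407 with placebo. A replicate block by letter gave 3 lower calls (Vpreb1, Vpreb3 and Niban3) and 1 higher (Dbp), the block by title number 1 lower and 0 higher, the random block by letter within antibody 6 lower and 1 higher, and averaging the limbs of a letter 0 and 0.

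Of the named genes, these changed sign. With the Y-linked covariate, the log2 fold changes were -0.0011 for Atp2a1, -0.0025 for Ttn, -0.0247 for Jchain, -0.0924 for Igkc, -0.1433 for Casq1, -0.1574 for Nr1d1, -0.3086 for Des, -0.431 for Acta1, -0.6255 for Trim63, 0.0256 for P4hb, 0.0626 for Tcf7l2, 0.2056 for Inhbb and 0.327 for Nr4a3. With the erythroid covariate they were -0.0604 for Furin, -0.0859 for Acvr2a, -0.0929 for Hba-a2, -0.2132 for Jchain, -0.2776 for Igkc, 0.0416 for Bmp1, 0.0479 for Tll1, 0.0563 for Tgfbr1, 0.0609 for Postn, 0.0729 for P4hb, 0.1406 for Tcf7l2, 0.1786 for Nog and 0.1797 for Inha. With the muscle covariate they were -0.044 for Igkc, -0.0579 for Nr1d1, 0.0251 for Nr4a3, 0.0666 for Tcf7l2 and 0.0804 for Inhbb. Hba-a2 had -0.0481 with quantile normalization and Trim63 -0.0248 with voom weights. Leaving out 1 library gave -0.057 to 0.2447 for Acvr2a, -0.0689 to 0.0921 for Bhlhe40, -0.7422 to 0.6179 for Fbxo32, -0.0414 to 0.1798 for Furin, -0.1638 to 0.2026 for Igkc, -0.0892 to 0.3269 for Inhba, -0.2493 to 0.0517 for Inhbb, -0.1464 to 0.2665 for Jchain, -0.0324 to 0.2329 for Nr1d1, -0.2066 to 0.0583 for Tcf7l2, -0.1437 to 0.1772 for Tgfbr3 and -0.1362 to 0.4923 for Wfikkn1. The cause of these shifts was not tested. Where 1 library was left out of a group, the remaining one was assumed to vary like the others. Counts at an unadjusted p under 0.05 also changed over all genes in these fits. A changed count of a list given above therefore cannot be read as particular to that list.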

Other observations

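Further lists had lower values with anti-GDF8 in most of their genes, none of which passed (limma). Of 20 genes of BMP signaling, 19 had lower values, 8 of them at an unadjusted p under 0.05 (median log2 fold change -0.39). Of 29 Wnt pathway genes 23 had lower values, 9 at an unadjusted p under 0.05 (median -0.38). Much of both differences was in ACLT limbs. The BMP median was -0.10 in control and -0.62 in ACLT limbs, and the Wnt median -0.12 and -0.58. In control limbs 8 of the BMP and 12 of the Wnt genes had higher values. Of 27 interferon-stimulated genes 22 had lower values and 5 an unadjusted p under 0.05 (median -0.26). Of 20 complement genes 15 had lower values, 7 at an unadjusted p under 0.05 (median -0.34), with 0.00 in control and -0.61 in ACLT limbs. Of 14 genes of antigen presentation by MHC class II, which B cells also use, 11 had lower values and 4 an unadjusted p under 0.05 (median -0.33). Over all genes 51.6% had lower values and 5.63% were lower at that p. With the Y-linked covariate 3 BMP, 5 Wnt, 0 interferon-stimulated, 2 complement and 0 MHC class II genes were lower at it, against 619 of all tested genes. With the erythroid covariate these counts were 2, 3, 14, 1 and 7, against 271. Without the limb term they were 4, 4, 2, 0 and 1, against 352. Leaving out 1 library gave 3 to 11 such genes of BMP signaling (fewest without anti-GDF8 control pool A or placebo ACLT pool A), 4 to 10 of the Wnt pathway (fewest without placebo ACLT pool A) and 1 to 7 interferon-stimulated genes (fewest without anti-GDF8 ACLT pool B). It gave 3 to 13 complement genes (most without placebo control pool B) and 0 to 6 of MHC class II (fewest without placebo ACLT pool B).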
